A study of Homo sapiens with 9 samples.

Results

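Voltage-gated sodium channel genes were followed in LX2 cells, an immortalised human line of hepatic stellate cells, the liver pericytes that turn into collagen-producing myofibroblasts in fibrosis. The members were 7 genes, SCN9A, SCN8A, SCN2A, SCN1A, SCN3A, SCN7A and SCN2B, and all 7 were matched by symbol among the 36601 genes counted. SCN9A was chosen by its large fall after YAP knockdown, so that its values in siYAP libraries are a description and carry no test; the others were taken as relatives of it. Cells had been transfected by lipofection with an siRNA against YAP (siYAP), against TAZ (siTAZ) or with a non-targeting siRNA (siNT), each at 20 nM, and were kept in medium with serum for 7 days. All groups are of this 1 line and differ, per the labels, only in the siRNA; the sequences of the siRNAs are not analysed here. There were 3 libraries in each group. The series text calls them biological replicates, but the labels do not say whether they came from separate cultures or days, and the p-values therefore reflect the spread among the libraries alone, which may be technical.

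A voltage-gated sodium channel is built around a large alpha subunit, which forms the pore, senses the membrane voltage and lets sodium into the cell when the membrane depolarises. Small beta subunits with an immunoglobulin-like domain attach to it and tune its gating and its placement at the membrane. The family is known for carrying the upstroke of the action potential in neurons and muscle, and transcripts of single members also occur in cells that do not fire. The Hippo pathway coactivators YAP, encoded by YAP1, and TAZ, encoded by WWTR1, reach their target genes mainly through TEAD proteins, which bind the DNA.

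Counts in genes totalled 16498508 to 18752805 per library. Levels are given as TMM-scaled CPM, in which the library sizes are made equal and 1 count equals 0.0522 to 0.0591 CPM. YAP1 averaged 26.3 CPM in siYAP, 170.0 CPM in siTAZ and 209.3 CPM in siNT libraries. WWTR1 averaged 75.8 CPM in siYAP, 9.54 CPM in siTAZ and 62.0 CPM in siNT libraries, so each siRNA lowered its own target. YAP1 was also lower after siTAZ (log2 fold change -0.30) and WWTR1 higher after siYAP (0.29). Both had an adjusted p under 0.05 in edgeR's quasi-likelihood test. The part of the lower YAP1 in the siTAZ results was not tested. Reads outside annotated genes made up 6.01 to 7.49% of the reads counted in a gene, in none or in several in siYAP libraries, 5.53 to 5.63% of siTAZ libraries and 4.73 to 5.13% of siNT libraries; the part of this difference in the results below was not tested. Of 15 hepatic stellate cell markers 14 had enough counts over all libraries to be tested, though DCN among them averaged only 0.327 CPM in siNT libraries. LRAT, the enzyme of retinoid storage in quiescent stellate cells, had 0 counts in every library.

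The promoters of the 3 members that could be tested are shown for their base composition. They span 250 bases before to 50 bases after the annotated start, from RefSeq on GRCh38.p14, and capitals mark CG dinucleotides. SCN9A lies on the minus strand at chr2:166375895-166376194, SCN8A on the plus strand at chr12:51590983-51591282, and the first of 2 SCN2A promoters, both at starts within the GENCODE span of the gene, on the plus strand at chr2:165239164-165239463.
SCN9A: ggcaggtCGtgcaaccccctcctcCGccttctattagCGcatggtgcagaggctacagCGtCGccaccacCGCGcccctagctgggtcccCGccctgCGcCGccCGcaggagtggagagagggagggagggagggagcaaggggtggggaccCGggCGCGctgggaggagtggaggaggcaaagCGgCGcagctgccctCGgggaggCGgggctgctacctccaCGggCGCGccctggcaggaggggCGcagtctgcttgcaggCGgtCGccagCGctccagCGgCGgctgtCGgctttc
SCN8A: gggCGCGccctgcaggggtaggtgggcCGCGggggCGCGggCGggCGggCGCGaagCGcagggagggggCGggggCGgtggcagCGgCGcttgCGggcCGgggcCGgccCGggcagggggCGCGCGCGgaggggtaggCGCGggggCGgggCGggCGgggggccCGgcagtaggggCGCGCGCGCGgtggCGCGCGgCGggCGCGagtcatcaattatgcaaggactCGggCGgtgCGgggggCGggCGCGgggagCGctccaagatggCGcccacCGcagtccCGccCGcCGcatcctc
SCN2A: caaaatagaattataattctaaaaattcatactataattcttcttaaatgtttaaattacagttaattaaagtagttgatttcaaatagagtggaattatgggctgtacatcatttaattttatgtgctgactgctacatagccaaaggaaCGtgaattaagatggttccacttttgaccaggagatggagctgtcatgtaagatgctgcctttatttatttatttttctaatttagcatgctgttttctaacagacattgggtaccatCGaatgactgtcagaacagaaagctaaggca

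The SCN8A promoter held 52 CG dinucleotides, above 99.2% of the 35116 promoters in the table, and the SCN9A promoter 28, above 73.8% of them. Both SCN2A promoters held few, 2 in the one shown and 1 in the other, against a median of 14 over all promoters. Of the members with hardly any counts, SCN1A had promoters with 3 and 2 CG dinucleotides, SCN2B had 1 with 1, and SCN7A had 1 with 0 and 1 with 11. The word GGAATG, the core of the TEAD recognition sequence, was searched on both strands, as was TGANTCA, the recognition word of AP-1 factors; no match of one overlapped a match of the other in a member. SCN3A had no promoter entry and was not searched. GGAATG stood in 14.03% of all promoters and, among the 6 members searched, only in 1 SCN1A promoter, 213 bases before the start. TGANTCA stood in 7.71% of all promoters and among these members only in the same SCN1A promoter, 248 bases before the start. SCN9A, SCN8A and SCN2A had neither word within these windows, which says nothing about sites elsewhere.

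Of the members, SCN9A and SCN8A were the ones with clear transcript levels in LX2 cells. SCN9A encodes an alpha subunit best known from pain-sensing neurons, where it amplifies small depolarisations. SCN8A encodes the alpha subunit that gathers at the nodes and the initial segment of axons. Levels of different genes were compared as TPM, which divide by the length of the annotated exons and sum to the same total in each library. In siNT cells SCN9A averaged 22.6 ± 1.25 TPM and SCN8A 18.0 ± 1.15 TPM (SD, n = 3 each), and the libraries of the 2 genes did not overlap. Among 22215 genes above 0 in siNT cells these levels ranked 7358 and 8107. No other member averaged above 0.0558 TPM there.

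The remaining members were at the limit of detection. SCN2A, an alpha subunit of cortical neurons, had 15, 20 and 13 counts in siYAP libraries, 11, 12 and 6 in siTAZ libraries and 7, 2 and 1 in siNT libraries. SCN7A, an atypical channel that in mouse senses the extracellular sodium level, had 0, 0 and 1 counts in siYAP, 0, 3 and 4 in siTAZ and 0, 5 and 1 in siNT libraries. SCN2B, a beta subunit joined to the alpha subunit by a disulfide bond, had 1, 0 and 0 counts in siYAP, 5, 1 and 2 in siTAZ and 0 in each of the siNT libraries. SCN2B thus had counts in every siTAZ library and in no siNT library, but too few to be tested. The counts of 1 and 2 lie within the limit for a count of 0 given below. SCN1A, the channel of inhibitory interneurons, had 1 count in 1 siYAP library, none in siTAZ and 2 in 1 siNT library. SCN3A, a channel of the fetal brain, had 1 count in a single siYAP library. A count of 0 allows up to 3 counts, or between 0.157 and 0.177 CPM, and this limit covers counting error only. Filtering on low counts left 15560 genes, and 3 of the 7 members passed it, SCN9A, SCN8A and SCN2A.

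**Figure D1:**
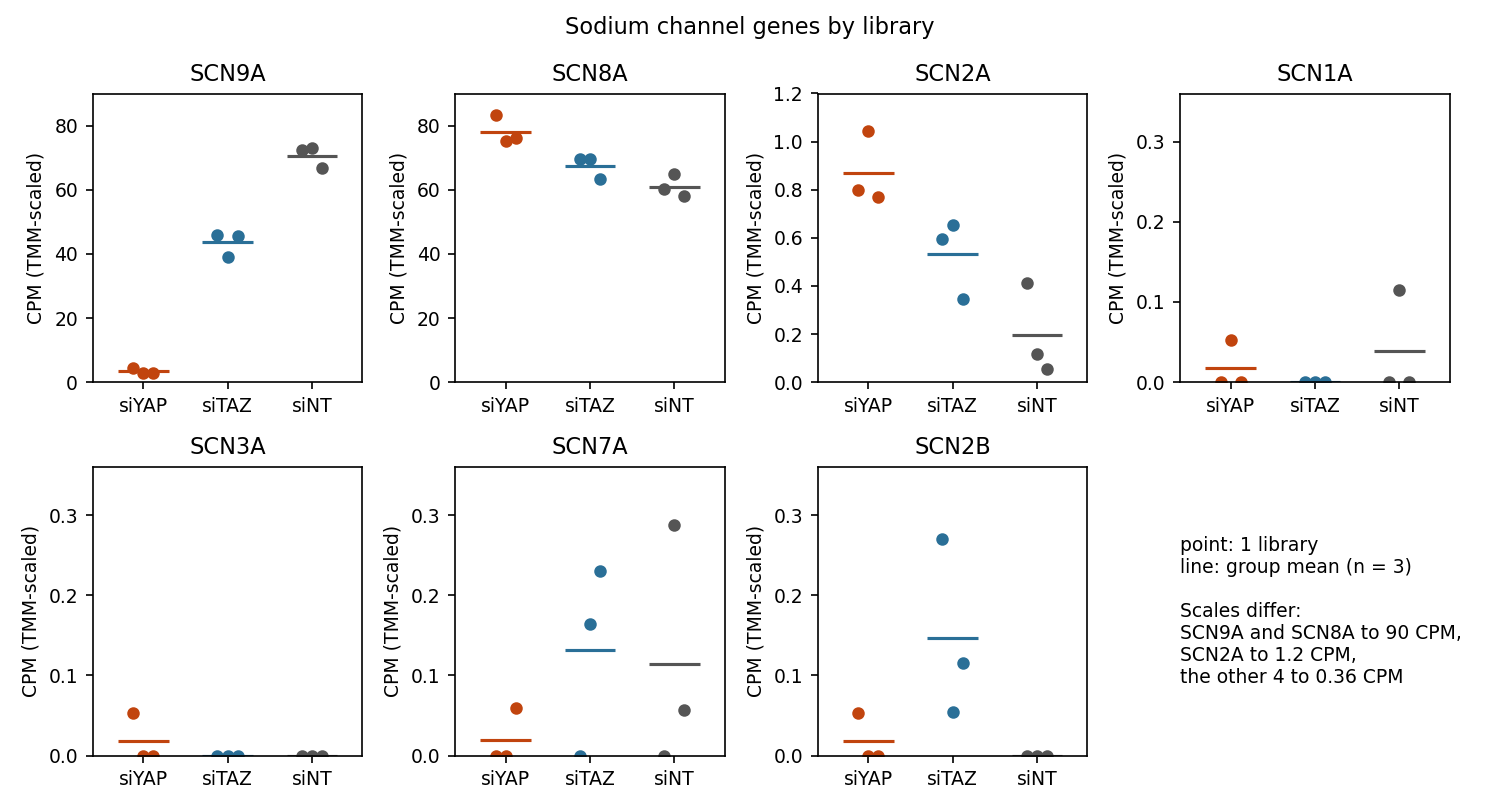
Level of the 7 member genes as TMM-scaled CPM in each library, with siYAP left, siTAZ in the middle and siNT right; points are single libraries, lines are means of 3 libraries, and the vertical scale differs between genes. SCN9A is lowest in siYAP libraries at 2.77 to 4.52 CPM, SCN8A is at 58.0 CPM or more in every library, and SCN1A, SCN3A, SCN7A and SCN2B are at most at 0.288 CPM.

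After YAP knockdown SCN9A was almost lost, while SCN8A was higher. SCN9A stood at 4.52, 2.77 and 2.84 CPM in siYAP libraries, against 72.5, 72.9 and 66.6 CPM in siNT libraries. The groups were far apart, with the highest siYAP library below each siNT library. The mean was 3.38 ± 0.994 CPM in siYAP and 70.7 ± 3.50 CPM in siNT cells (SD, n = 3 each), a log2 difference of -4.38 or 20.8-fold lower in siYAP. This difference is the one SCN9A was selected on. Among genes with a symbol and an average log2 CPM of at least 3 it took place 5 in the order of falls, after TLL1 at -4.57 and before MSTN at -4.07. In bulk libraries such as these, fewer cells that transcribe a gene and less of its RNA per cell cannot be told apart.

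SCN8A stood at 83.3, 75.1 and 76.0 CPM in siYAP libraries, against 60.1, 64.9 and 58.0 CPM in siNT libraries. Each siYAP library lay above each siNT library. The log2 fold change was 0.36 (SE 0.058), or 1.28-fold, with an adjusted p of 2.13e-07 in edgeR's quasi-likelihood test. SCN2A stood at 0.798, 1.04 and 0.769 CPM in siYAP libraries, against 0.413, 0.115 and 0.0566 CPM in siNT libraries. Those groups did not overlap either, and the log2 fold change was 2.14 (SE 0.649), or 3.24 without siNT library 1. SCN2A passed the count filter through the siYAP libraries, where it was high, so that this value is a description as well. SCN8A was thus the only member tested free of the choice of members and of the filter, and it was called higher, where 33.8% of all genes tested were called higher and 33.4% lower; the median log2 fold change of all genes was 0.021. With that many genes called, the call of 1 member says little of the family.

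After TAZ knockdown SCN9A was lower as well, by less. SCN9A had 46.0, 39.1 and 45.6 CPM in siTAZ libraries, against 72.5, 72.9 and 66.6 CPM in siNT libraries. Every siTAZ library was below every siNT library. The mean was 43.6 ± 3.87 CPM in siTAZ and 70.7 ± 3.50 CPM in siNT cells, a log2 fold change of -0.70 (SE 0.075) or 1.62-fold lower, with an adjusted p of 2.77e-11 in edgeR's quasi-likelihood test. The siNT libraries also entered the contrast SCN9A was chosen on, and they serve as controls of both knockdowns. For SCN9A the log2 difference from siNT was thus -4.38 in siYAP and -0.70 in siTAZ cells.

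SCN8A had 69.6, 69.6 and 63.3 CPM in siTAZ libraries, against 60.1, 64.9 and 58.0 CPM in siNT libraries. The lowest siTAZ library lay within the siNT range. The log2 fold change of 0.15 (SE 0.059, 1.11-fold) had an adjusted p of 0.0461 in edgeR's test, just under the threshold of 0.05, and the call was lost in 10 of 18 other analyses, where the log2 fold change was between 0.11 and 0.15; these include the removal of siNT library 1 (0.14, adjusted p = 0.1247) or 3 (0.11, adjusted p = 0.2233), of siYAP library 3 (0.15, adjusted p = 0.05045) and of siTAZ library 1 (0.12, adjusted p = 0.1598) or 2 (0.12, adjusted p = 0.1601). SCN2A had 0.595, 0.655 and 0.346 CPM in siTAZ libraries, against 0.413, 0.115 and 0.0566 CPM in siNT libraries. The ranges overlapped, through siNT library 1. Its log2 fold change of 1.44 (95% interval 0.079 to 2.86, adjusted p = 0.09568 in edgeR's test) did not pass; without siNT library 1 it was 2.55 with an adjusted p of 0.02939. Of the 3 members tested, 1 was called higher and 1 lower, where 16.4% of all genes tested were called higher and 18.2% lower, and the median log2 fold change of all genes was 0.0069.

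Set directly against each other, the knockdowns left different levels of SCN8A. SCN8A averaged 67.5 ± 3.66 CPM in siTAZ and 78.1 ± 4.46 CPM in siYAP cells (SD, n = 3 each). The siTAZ libraries all lay below the siYAP libraries, with a log2 fold change of -0.21 (SE 0.058, adjusted p = 0.001072, edgeR). SCN9A averaged 43.6 CPM in siTAZ and 3.38 CPM in siYAP cells, a log2 difference of 3.68 given as a description. SCN2A averaged 0.532 CPM in siTAZ and 0.870 CPM in siYAP cells, a log2 difference of -0.70 (95% interval -1.78 to 0.37). SCN2A passed the count filter through the siYAP libraries, so that this value is a description too. In this comparison 33.0% of all genes tested were called higher and 33.2% lower in siTAZ cells.

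**Figure D2:**
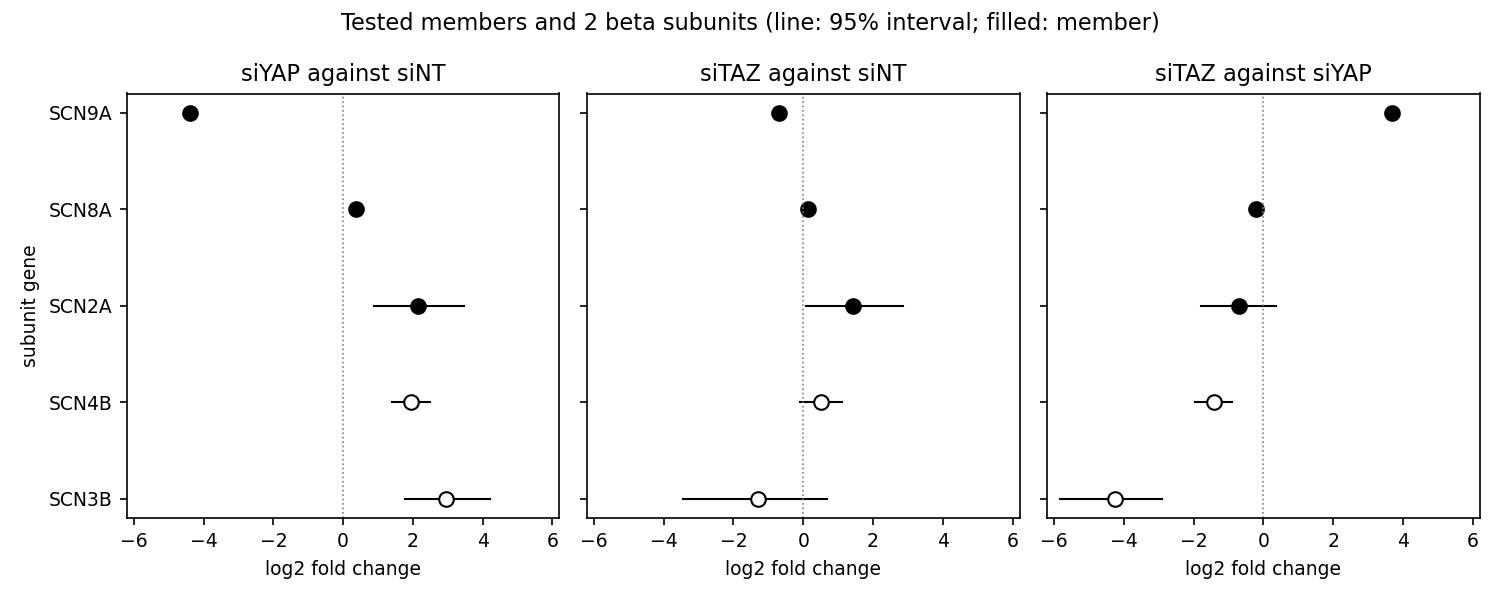
Log2 fold change of 5 tested sodium channel subunit genes, for siYAP against siNT (left), siTAZ against siNT (middle) and siTAZ against siYAP (right); filled points are members, open points other subunits, and lines are 95% intervals, left out for SCN9A where siYAP libraries enter. SCN9A lies at -4.38 after siYAP and -0.70 after siTAZ, and SCN8A at 0.36 and 0.15; SCN2A and SCN3B passed the count filter through their siYAP libraries.

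Per length, SCN8A stood above SCN9A in both knockdowns and below it in siNT cells. SCN8A averaged 24.4 ± 1.44 TPM and SCN9A 1.15 ± 0.340 TPM in siYAP cells, followed by SCN2A at 0.171 TPM, and no neighbours in this order overlapped. In siTAZ cells SCN8A averaged 20.4 ± 1.25 TPM and SCN9A 14.3 ± 1.30 TPM, again without overlap. The ratio of SCN9A to SCN8A in TPM was 0.0590, 0.0400 and 0.0406 in siYAP libraries, 0.718, 0.610 and 0.784 in siTAZ libraries and 1.31, 1.22 and 1.25 in siNT libraries. It was below 1 in every knockdown library and above 1 in every siNT library. Between siYAP and siNT libraries the ratio holds the difference SCN9A was chosen by and is a description. Below these 2 genes, the orders of SCN2A, SCN2B, SCN7A, SCN1A and SCN3A overlapped in siTAZ and siNT cells.

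Summed over the 6 alpha subunit genes among the members, the level was 25.8 ± 1.77 TPM in siYAP, 34.9 ± 1.47 TPM in siTAZ and 40.7 ± 2.36 TPM in siNT cells (SD, n = 3 each). The lower sum in siYAP than in siNT cells came from SCN9A, at 1.15 against 22.6 TPM, which was chosen by this fall. SCN8A was higher in siYAP cells, at 24.4 against 18.0 TPM, so the sum does not show a fall of the family. SCN9A made up 4.41% of that sum in siYAP, 41.0% in siTAZ and 55.6% in siNT cells. SCN8A made up 94.8% of it in siYAP, 58.5% in siTAZ and 44.15% in siNT cells. The other 4 genes together, SCN2A, SCN1A, SCN3A and SCN7A, stayed below 1% of the sum in every library.

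**Figure D3:**
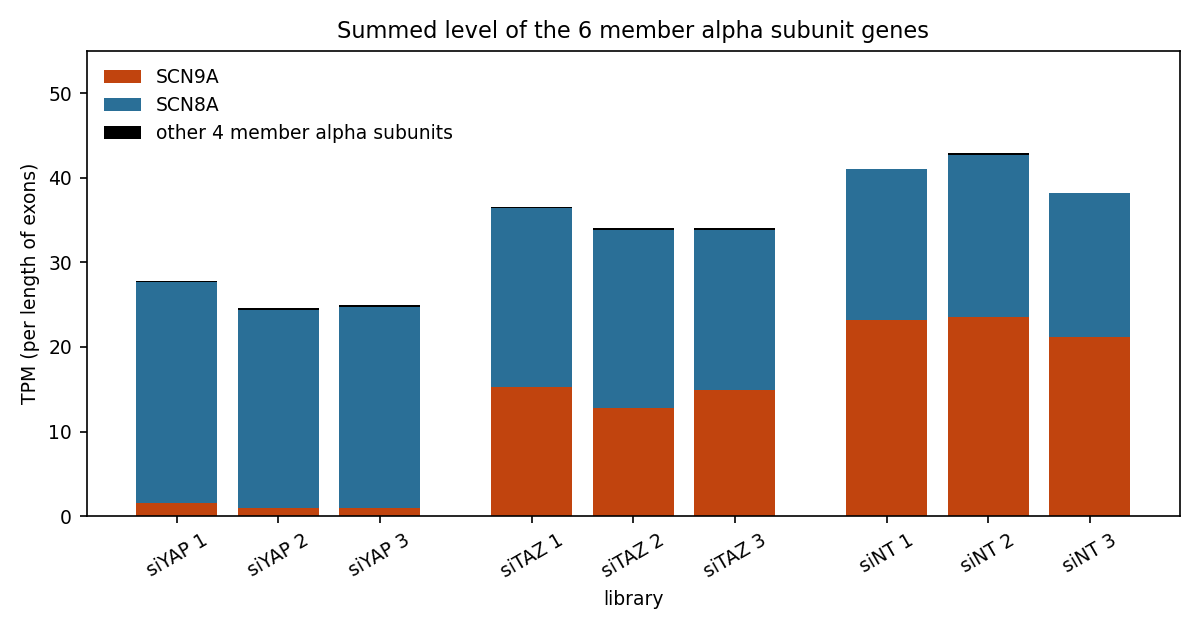
Summed TPM of the 6 member alpha subunit genes in each library, split into SCN9A, SCN8A and the other 4 genes together, with siYAP libraries left, siTAZ in the middle and siNT right. The SCN9A segment falls to between 3.81 and 5.54% of the bar in siYAP libraries, against 54.7 to 56.6% in siNT libraries, while the SCN8A segment is taller in siYAP libraries than in siNT libraries.

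SCN10A, an alpha subunit of sensory neurons, had 6, 9 and 1 counts in siYAP libraries and 0 in every siTAZ and siNT library. SCN4A, the skeletal muscle subunit, had at most 3 counts in a library and SCN11A, another sensory neuron subunit, at most 6.

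Among the beta subunits, SCN4B, whose tail takes part in the resurgent sodium current, rose by 1.94 (log2) in siYAP cells, at 6.18 CPM against 1.61 CPM in siNT cells (adjusted p = 9.68e-09, edgeR). It averaged 2.29 CPM in siTAZ cells, a log2 fold change of 0.51 (adjusted p = 0.1919), which became 1.07 (adjusted p = 0.01208) without siNT library 1. SCN3B had 21, 28 and 34 counts in siYAP libraries, 2, 0 and 2 in siTAZ and 2, 1 and 7 in siNT libraries, a log2 fold change of 2.94 for siYAP against siNT and of -1.30 for siTAZ against siNT, which did not pass (adjusted p = 0.3265, edgeR). Without siNT library 3 these values were 4.01 and -0.22. SCN3B too passed the filter only through the siYAP libraries, so that its value after siYAP is a description.

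Of the 7 members, 5 lie together on chromosome 2. On GRCh38 (GENCODE 29) SCN3A spans chr2:165087522-165204067, SCN2A chr2:165194993-165392310, SCN1A chr2:165984641-166149214, SCN9A chr2:166195185-166376001 and SCN7A chr2:166403573-166494326, all on the minus strand except SCN2A. SCN8A lies at chr12:51590266-51812864 on the plus strand and SCN2B at chr11:118161951-118176673 on the minus strand. Within the cluster SCN1A, SCN3A and SCN7A had at most 5 counts in any library. The antisense gene SCN1A-AS1 shares 1122 exonic bases, or 8.17%, with SCN9A, and it had at most 3 counts in a library. SCN8A shares 896 exonic bases with an antisense gene that had 0 counts. Whether counting used strand is not stated, so reads of such antisense pairs cannot be told apart.

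Of the 6 tested genes around the cluster 4 were lower and 2 higher after siYAP, where 33.4% of all genes tested were lower and 33.8% higher. GALNT3, which starts O-linked glycans, averaged 5.17 CPM in siYAP and 22.3 CPM in siNT cells (log2 fold change -2.11, adjusted p = 1.24e-22, edgeR). FIGN, a microtubule-severing enzyme, stood at -1.02 (log2), TTC21B, a part of the transport machinery of cilia, at -0.97, and STK39, a kinase that activates sodium-linked chloride cotransporters, at -0.55; all were called. XIRP2, an actin-binding protein of muscle, had 23, 19 and 31 counts in siYAP libraries and 1, 1 and 0 in siNT libraries; it was called higher, but passed the filter only through the siYAP libraries. COBLL1 had a log2 fold change of 1.15 (adjusted p = 0.01644), with the call lost without siNT library 1 (0.97, adjusted p = 0.07542) or 3 (0.85, adjusted p = 0.1087) and a value of 1.73 without siNT library 2. After siTAZ GALNT3 was lower again (-1.40), STK39 (0.59) and FIGN (0.45) were higher, and COBLL1, TTC21B and XIRP2 were not called. Of all genes tested 16.4% were higher and 18.2% lower after siTAZ. XIRP2 had 1 count in all siTAZ libraries together, too few for that comparison to show a fall.

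**Figure D4:**
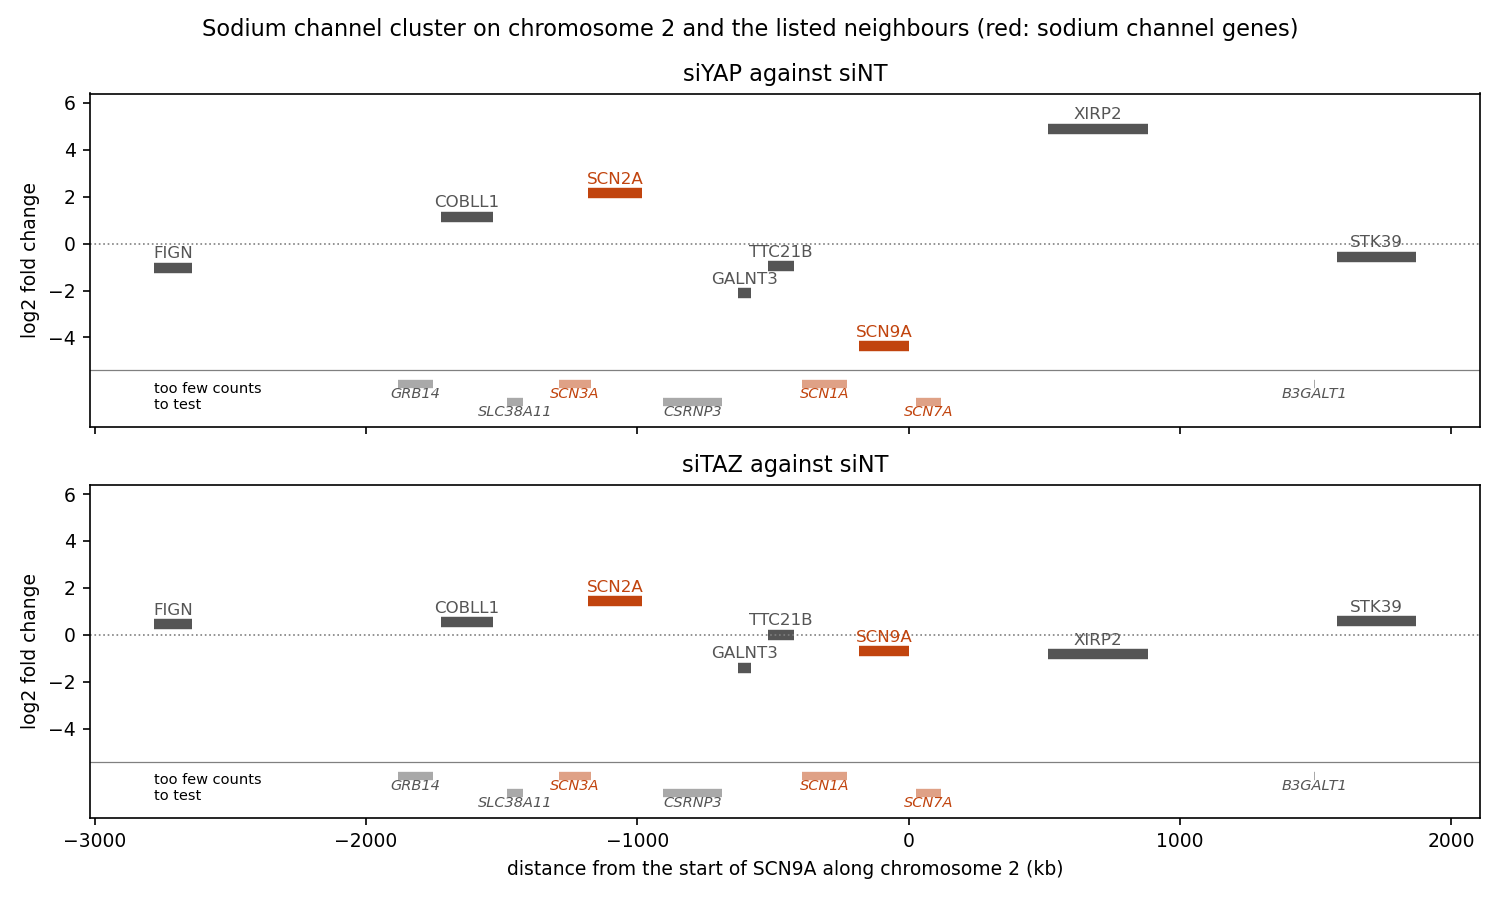
Log2 fold change against siNT of the sodium channel genes on chromosome 2 (red) and of the listed neighbours (grey), by distance in kb from the start of SCN9A, for siYAP (top) and siTAZ (bottom); each bar spans the gene, and genes with too few counts to test stand below the line. After siYAP SCN9A, chosen by this value, lies at -4.38, and SCN2A, which passed the filter through its siYAP libraries, at 2.14.

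The genes whose log2 CPM ran most like that of SCN9A over the 9 libraries were GFRA1 (Pearson r = 0.9986), ASAP1 (0.9984), CDH4 (0.998), ALPK2 (0.998) and NRXN3 (0.9979), of 12494 genes compared. GFRA1, a co-receptor for the growth factor GDNF, averaged 87.1 CPM in siYAP, 361 CPM in siTAZ and 469 CPM in siNT cells, and CDH4, a cadherin, 14.5, 103 and 155 CPM. The libraries form 3 groups, so that genes with a similar order of group means tend to correlate; 2467 genes reached r of at least 0.9 with SCN9A. For SCN8A the closest were CRAMP1 (r = 0.982) and PLEKHM3 (r = 0.970), with 375 genes at or above 0.9. For SCN2A they were TMEM214 (r = 0.964) and NLRX1 (r = 0.962), with 63 such genes. SCN2A had only 1 to 20 counts per library, so its values hold much counting error, and it passed the filter through the siYAP libraries. The order for SCN9A holds the siYAP values it was chosen by and is a description.

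Of 29 listed genes for proteins that bind, anchor or regulate sodium channels 24 were tested, and 15 of them were lower and 3 higher after siYAP, where 33.4% of all genes tested were lower and 33.8% higher. Their median log2 fold change was -0.27, and that of all genes 0.021. The examples given for this list and those that follow are the called genes with the largest changes among those whose log2 CPM averaged 0 or more. GPD1L, a regulator of sodium channels, averaged 6.45 CPM in siYAP and 27.6 CPM in siNT cells (log2 fold change -2.10). CALM3, a calmodulin gene, averaged 116.5 and 440.9 CPM in siYAP and siNT cells (-1.92), and SPTBN4, the spectrin of the axon initial segment, 1.27 and 3.40 CPM (-1.43). REST, which represses neuronal genes including SCN2A, and its partner RCOR1 were singled out after their values were seen, so these are descriptions. After siYAP REST fell by 0.39 (log2) and RCOR1 by 0.74. A part of REST in the SCN2A values was not tested.

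After siTAZ 8 of these 24 genes were lower and 5 higher, with a median log2 fold change of -0.08, where 18.2% of all genes tested were lower and 16.4% higher. NEDD4, a ubiquitin ligase, averaged 159.9 CPM in siTAZ and 235.6 CPM in siNT cells (log2 fold change -0.56). SPTBN4 (-0.85) and ANK3 (-0.83), which encodes the ankyrin that anchors channels in the initial segment, were called too, but each call was lost in 5 of 18 other analyses. For SPTBN4 those include the removal of siNT library 1 (adjusted p = 0.05058) or 3 (0.07095) and of siTAZ library 2 (0.05898) or 3 (0.05984), and for ANK3 that of siNT library 2 (0.08367) or 3 (0.05035) and of siTAZ library 2 (0.06988) or 3 (0.0564), all as edgeR's adjusted p. REST and RCOR1, again as descriptions, had log2 fold changes of -0.01 and 0.20 after siTAZ. For RCOR1 the value was 0.15 without siTAZ library 1.

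Other routes of sodium entry and removal moved in both directions. NALCN, the voltage-independent leak channel, averaged 3.31 CPM in siYAP and 7.70 CPM in siNT cells (log2 fold change -1.22), while its partner NALF1 was at 0.43 after siYAP and -0.82 after siTAZ. ASIC1, an acid-sensing channel, fell by 1.54 (log2) after siYAP and ASIC3 rose by 0.59. After siTAZ ASIC3 rose by 0.82; the call of ASIC1 at -0.27 was lost without siNT library 1 or 2 or siTAZ library 1 or 2, at -0.28 to -0.22. SCNN1B and SCNN1G, subunits of the epithelial sodium channel, had 0 counts throughout. Of 16 tested pumps and transporters, 8 were higher and 5 lower after siYAP, where 33.8% of all genes tested were higher and 33.4% lower. The largest changes at that average level were those of SLC12A2 (-1.35), a sodium-potassium-chloride cotransporter, SLC8A1 (-1.34), a sodium-calcium exchanger, and SLC9A9 (1.28), a sodium-proton exchanger of endosomes; below it, ATP1B2, a beta subunit of the sodium pump, was called at -2.70. After siTAZ 4 were higher and 4 lower, against 16.4% and 18.2% of all genes, among them SLC4A4 (-0.71), a bicarbonate cotransporter, SLC9A8 (0.51) and SLC8A1 (-0.41).

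Calcium and potassium channel genes serve as the comparison with other voltage-gated families. Of 10 calcium channel genes tested, 6 were lower and 1 higher after siYAP (median log2 fold change -0.79), against 33.4% lower and 33.8% higher among all genes. CACNA1G (-1.02), CACNA2D2 (-0.95) and CACNA1C (-0.84) were among the lower ones. CACNA1H, below the average level set for examples, had 2, 0 and 0 counts in siYAP and 17, 14 and 19 in siNT libraries. It passed the filter only through the siNT libraries. The 1 gene called higher, CACNA1A, had 22, 35 and 13 counts in siYAP and 6, 8 and 6 in siNT libraries. It passed the filter only through the siYAP libraries. Both genes enter the counts and the median given above, although the filter favoured a difference in them. After siTAZ 2 calcium channel genes were higher and 1 lower, against 16.4% and 18.2% of all genes: CACNA1G (1.33) and CACNA1C (0.61) rose, whereas the call of CACNA2D3 at -1.25 was lost without siNT library 1 or 2 or siTAZ library 1 or 3, at -1.14 to -1.06. Of 16 potassium channel genes tested, 5 were higher and 6 lower after siYAP, among them KCNQ3 (2.53) and KCNH1 (-2.02), and 3 were higher and 5 lower after siTAZ, among them KCNS1 (-1.60). The siYAP shares are near those of all genes, 33.8% higher and 33.4% lower. After siTAZ 16.4% of all genes were higher and 18.2% lower. KCNE4 was called higher after siTAZ at 0.67, a call lost without siNT library 2 or 3 or siTAZ library 3, at 0.61 to 0.63. KCND3, which carries a transient outward current, had 2 counts in each siYAP library, 3, 1 and 4 in siTAZ and 78, 99 and 63 in siNT libraries, and was called lower after both siRNAs; it passed the filter only through the siNT libraries.

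Of 15 neuron markers listed, 6 were tested, and the whole list summed to 84.9 to 92.9 CPM in siYAP, 71.1 to 73.9 CPM in siTAZ and 80.6 to 86.3 CPM in siNT libraries. After siYAP 2 were called higher and 1 lower, against 33.8% and 33.4% of all genes: NEFL, a neurofilament, rose by 4.88 (log2) and TUBB3, a tubulin, fell by 1.18, while the call of SYT1 at 0.35 was lost without siNT library 2 or 3 or siYAP library 1 or 2, at 0.27 to 0.32. After siTAZ NEFL (1.28) and SYT1 (0.83) were higher and TUBB3 (-0.46) lower. Summed muscle markers lay at 17.2 to 20.7 CPM in siYAP, 16.4 to 21.9 CPM in siTAZ and 15.7 to 20.9 CPM in siNT libraries, and Schwann cell and glia markers at 125.3 to 129.3, 128.3 to 133.9 and 119.6 to 126.3 CPM. Endothelial markers summed to 12.6 to 16.4 CPM in siYAP, 7.74 to 8.96 CPM in siTAZ and 13.0 to 16.0 CPM in siNT libraries. Within that sum PECAM1 averaged 6.39 CPM in siYAP and 0.519 CPM in siNT cells, whereas CDH5 averaged 0.36 and 5.21 CPM. Hepatocyte markers summed to 13.0 to 16.1 CPM in siYAP, 1.14 to 2.19 CPM in siTAZ and 2.01 to 2.10 CPM in siNT libraries. In siYAP libraries SERPINA1 alone gave 12.7 to 15.9 CPM of the hepatocyte sum; the other 7 genes of the list had at most 5 counts in any library, and TTR had 0 in all. Macrophage and leukocyte markers summed to 126.1 to 130.9 CPM in siYAP, 22.6 to 24.8 CPM in siTAZ and 34.1 to 37.7 CPM in siNT libraries. CD68 alone gave 112.3 to 116.1 CPM of that sum in siYAP and 21.2 to 23.05 CPM in siNT libraries, whereas PTPRC, the common leukocyte antigen, stood at 0.106 to 0.177 CPM in siYAP and 2.15 to 2.99 CPM in siNT libraries. Stellate cell markers summed to 4612 to 4687 CPM in siYAP, 10549 to 10732 CPM in siTAZ and 7204 to 7327 CPM in siNT libraries. COL1A1 was the largest part, averaging 2046 CPM in siYAP, 6255 CPM in siTAZ and 4168 CPM in siNT cells. Of the 14 tested stellate cell markers 6 were called higher and 7 lower after siYAP, against 33.8% and 33.4% of all genes. After siTAZ 5 were higher and 4 lower, against 16.4% and 18.2%. The part of these shifts in the channel results was not tested.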

How the data were processed

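The authors deposited raw read counts per Ensembl gene for each of 9 libraries, with no normalization. The submitters' processing notes name STAR 2.5.0c and HTSeq (with Trim Galore, Picard and SAMtools) and no settings; they name a mouse build, although the gene IDs are human. The strand setting and the annotation were not given in the sources used here. Symbols were found for 25384 of 36601 IDs; coordinates and exon lengths are those of GENCODE 29 on GRCh38. Genes were filtered with edgeR's filterByExpr (minimum count 10, minimum total 15), scaled by TMM and fitted with edgeR 4.0.16 (R 4.3.3) in 1 robust quasi-likelihood model over all libraries, with two-sided tests and Benjamini-Hochberg adjustment over 15560 genes; called genes have an adjusted p under 0.05. TPM used the union of annotated exons. The fit was tested on simulated data. The members and gene lists were chosen with earlier results of these data known. Some listed genes are not reported here and were left out of the list counts. Named besides the members were the other listed subunits and tested neighbours, up to 3 called genes per list with the largest change (average log2 CPM 0 or more), and the closest genes by correlation. The alternatives tried were upper-quartile and RLE scaling, no filter, a CPM of at least 1 in 3 libraries, a replicate block, only the compared groups, DESeq2 1.42.0, limma-voom (limma 3.58.1), an adjusted p under 0.01 and each library left out.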

Additional observations from a re-analysis of the deposited data

How the results depend on the processing

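Over 18 alternative analyses, no log2 fold change of SCN9A, SCN8A, SCN2A, SCN4B or SCN3B turned its direction where it was called: of 265 such values, 253 kept their side of the threshold, 10 no longer passed, all for SCN8A after siTAZ, and 2 newly passed, SCN2A and SCN4B after siTAZ without siNT library 1. The 265 include the siYAP comparisons of SCN9A, SCN2A and SCN3B, where the choice or the filter favoured a difference. The count of 253 is therefore no measure of how firm the tests are. The number of members called after siTAZ, 2, became 1 under RLE scaling, without a count filter, with DESeq2, with limma-voom and at an adjusted p under 0.01, and lay between 1 and 2 with single libraries left out; SCN8A was the member lost. With a replicate block 3 members were called for siYAP against siNT, SCN9A and SCN2A of them through choice and filter. For siTAZ against siNT 2 were called, and for siTAZ against siYAP 2, SCN9A of them through choice. With the block 10434, 5413 and 10268 genes were called, against 10448, 5391 and 10298 of 15560 without it. Without it 33.8%, 16.4% and 33.0% of all genes were called higher and 33.4%, 18.2% and 33.2% lower. Same-numbered libraries correlated at -0.031 to 0.014 in their deviations from the group means, and the block changed no call of these genes. The correlations show no shared pattern by replicate number, but they cannot show whether the libraries were paired. The ratio of SCN9A to SCN8A in siNT cells, 1.26, was 1.37 with the longest transcript as length and 1.31 in siNT library 1 alone. SCN2A was not tested where a CPM of at least 1 in 3 libraries was required, nor for siTAZ when only the compared groups were fitted. With 0 to 5 counts per library, SCN1A, SCN3A, SCN7A and SCN2B cannot show a difference at this depth.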
